A study of Mus musculus with 30 samples.

Results

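Transcripts of the nuclear-encoded subunits of oxidative phosphorylation were followed in single mouse blastocysts. The members were 47 genes listed by name, covering complexes I to V and cytochrome c, and each was read from the transcript cluster that carried its symbol alone and had the highest mean over all 30 arrays. Of the 47, 46 were matched and are described here, out of 30142 genes with a symbol of their own on the arrays; Atp5c1 was not analysed here, and Atp5f1 appears under its newer name Atp5pb. All 46 passed the filter on low values, which kept 18087 genes. They comprise 18 genes of complex I, 4 of complex II, 6 of complex III, 10 of complex IV, 7 of complex V and Cycs. Ndufa4, now known as a subunit of complex IV, is counted with complex I throughout.

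Each array held the RNA of 1 blastocyst. All embryos came from B6C3F1 x CD1 matings after stimulation with PMSG and hCG, were collected as zygotes and spent the first cleavage in KSOM(aa), which is a potassium simplex medium for mouse embryos that holds amino acids. In 10 embryos the sister blastomeres were then parted at the 2-cell stage, and 1 sister was grown alone in GM501 and the other alone in SAGE 1-Step, which are media for assisted human reproduction; this gave 10 GM501 twins, 10 SAGE twins and 10 pairs. Another 10 embryos were left intact and grown singly in KSOM(aa) as controls. All were lysed at 4 days post coitum (Theiler stage 5) after 96 h of culture, at about 40 to 50 cells in a twin and about 80 in a control, so that medium, bisection and cell number differ together between twins and controls and cannot be told apart. The labels do not say how many females or culture days stood behind a group, so the p-values rest on the spread among these blastocysts, part of which may be technical.

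Oxidative phosphorylation is the route by which mitochondria turn the oxidation of fuel into ATP. Complex I takes electrons from NADH and complex II from succinate, complex III passes them to cytochrome c, complex IV hands them to oxygen, and complex V, the ATP synthase, uses the proton gradient that complexes I, III and IV build. A few subunits of each complex carry the redox centres or the catalytic sites, and the many others, called supernumerary or accessory, support assembly and stability. Several of the former are encoded in mitochondrial DNA, so each complex except complex II is put together from the products of both genomes. In the blastocyst, ATP from this route is used among other things by the trophectoderm, the outer epithelium that pumps ions to fill the cavity.

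Many of these genes are known targets of the nuclear respiratory factors, and promoters of members that stood highest or lowest against controls are shown for that reason. Of the 46 members, 35 had a promoter window in the RefSeq table for GRCm38.p6, from 250 bases before the annotated start to 50 after it. The windows were searched on both strands for GCATGCGC (the core of the NRF1 motif, whose 2 strands overlap in a palindromic site), CCGGAAG (the ETS motif bound by GABP), AAGATGG (part of the YY1 motif), GGGCGG (the GC box bound by SP1) and TGACGTCA (the CRE). The NRF1 core was found in 6 of the 35 members (17.1%), against 3.05% of the 27025 genes with a window. The GABP motif was found in 9 members (25.7% against 9.93%), YY1 in 5 (14.3% against 7.28%), the GC box in 17 (48.6% against 38.20%) and the CRE in 3 (8.6% against 2.03%). The stretches below run from base -120 to base -1 before the start, 5′ to 3′ along the gene, with matches in capitals.
Cycs, chr6:50566570-50566689, minus strand: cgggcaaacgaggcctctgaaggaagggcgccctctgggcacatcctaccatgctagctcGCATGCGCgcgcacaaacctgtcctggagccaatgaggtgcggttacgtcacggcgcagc
Ndufa6, chr15:82354292-82354411, minus strand: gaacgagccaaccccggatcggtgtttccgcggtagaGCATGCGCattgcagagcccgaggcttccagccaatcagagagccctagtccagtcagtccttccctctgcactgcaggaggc
Ndufa8, chr2:36049339-36049458, minus strand: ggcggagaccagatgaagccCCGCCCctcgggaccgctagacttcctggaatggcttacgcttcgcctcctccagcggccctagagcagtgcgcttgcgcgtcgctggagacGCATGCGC
Ndufa4, chr6:11907451-11907570, minus strand: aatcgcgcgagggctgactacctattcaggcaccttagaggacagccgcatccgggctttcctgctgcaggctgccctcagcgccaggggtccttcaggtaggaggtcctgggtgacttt
Uqcrc1, chr9:108936528-108936647, plus strand: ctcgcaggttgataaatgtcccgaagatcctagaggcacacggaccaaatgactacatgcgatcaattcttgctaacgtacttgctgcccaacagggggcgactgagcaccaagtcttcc
Sdha, chr13:74350241-74350360, minus strand: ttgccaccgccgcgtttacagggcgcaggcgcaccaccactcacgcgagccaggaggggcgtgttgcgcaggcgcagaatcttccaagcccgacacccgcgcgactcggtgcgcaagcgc
Ndufv1, chr19:4012756-4012875, minus strand: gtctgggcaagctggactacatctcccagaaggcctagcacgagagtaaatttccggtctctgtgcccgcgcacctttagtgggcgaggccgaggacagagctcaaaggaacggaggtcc
Atp5b, chr10:128083187-128083306, plus strand: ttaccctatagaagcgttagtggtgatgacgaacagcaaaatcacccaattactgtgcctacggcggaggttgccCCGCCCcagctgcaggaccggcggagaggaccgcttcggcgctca
Ndufa6 and Ndufa8, which were high in many twins, carried the NRF1 core in these stretches, at -83 and -8. The Cycs stretch, which belongs to the gene on chromosome 6, carried it at -60, with a CRE farther upstream at -169; the cluster with the high signal lies on chromosome 19, and the one on chromosome 6 did not pass in either medium. By direction, the NRF1 core was in 4 of the 19 windows of members called higher in pairs 1 to 6 and in 1 of the 6 windows of members called lower over all 10 pairs. Ndufa4, the member with the highest difference of all, had no match there. Of the members that were low in twins, Sdha and Ndufv1 had no match in the stretch, Atp5b had GC boxes at -199 and -45, and Uqcrc1 had the NRF1 core on both strands after the start, at 31 and 33. A match is a description of letters and not evidence of binding.

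The signals were log2 values, and they compare 1 gene between arrays and not 1 gene with another. Array medians lay between 4.59 and 4.69 in controls, and between 4.81 and 5.28 in the 12 twins of pairs 1 to 6. In pairs 7 to 10 at least 1 twin of each pair had a median no higher than the highest control, and the 8 medians ran from 4.57 to 5.12, the last being the SAGE twin of pair 8. This split follows the arrays and not a label; both media are in both sets, and whether it is technical was not tested. Centring each array on its own median moved the median twin-minus-control difference of all genes from 0.11 to -0.13, so results are given on both scalings where they differ.

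**Figure D1:**
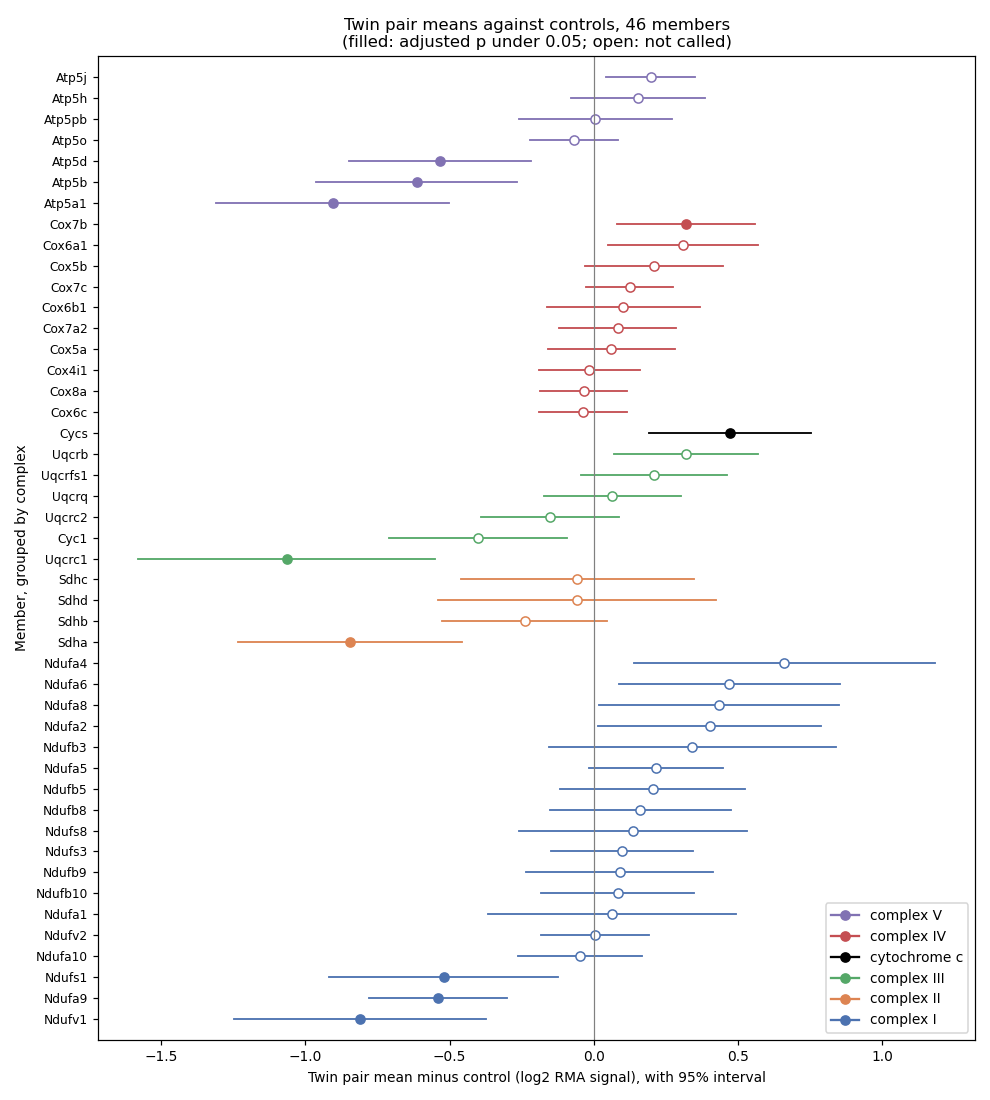
Difference between twin pair means and controls for each of the 46 members, in log2 units on the horizontal axis with 95% intervals, grouped and coloured by complex on the vertical axis; filled points passed the test at an adjusted p under 0.05. The 8 members to the left with filled points run from Uqcrc1 at -1.07 to Ndufs1 at -0.52, and Cycs at 0.47 and Cox7b at 0.32 are the filled points to the right.

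With 1 mean for each embryo of origin, 8 members were lower in twins than in controls and 2 were higher. The lower ones were Uqcrc1, Atp5a1, Sdha, Ndufv1, Atp5b, Ndufa9, Atp5d and Ndufs1, which were lower by 1.07 to 0.52 on the log2 scale, and the higher ones were Cycs and Cox7b. The lower members included the flavoprotein of complex II, the NADH-binding subunit of complex I, a core protein of complex III and Atp5a1, Atp5b and Atp5d, the 3 measured of the 4 listed subunits of the F1 head of complex V. Atp5e, the epsilon subunit of that head and no member, was at 0.34 and did not pass (adjusted p = 0.267). Most of the small accessory subunits of complexes I and IV did not pass. This is 10 of 46 members (21.7%, with 4.35% higher and 17.4% lower) beside 25.6% of all genes called, 14.2% higher and 11.4% lower, so the share called was near the background. The median difference of the members was 0.07 and that of all genes 0.11. In whole blastocysts, fewer cells of a type and less RNA per cell cannot be told apart.

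Each medium was also set against the same 10 controls; the 2 comparisons share those arrays and are given side by side. GM501 twins had 1 member higher and 7 lower (17.4%, with 13.8% of all genes called, 6.81% higher and 6.97% lower), and SAGE twins had 1 higher and 6 lower (15.2%, with 16.1% of all genes called, 7.49% higher and 8.64% lower). The lower members were Uqcrc1, Atp5a1, Sdha, Ndufv1, Atp5b and Ndufa9 in both media, with Atp5d in GM501 besides, and the higher one was Cycs in both. No member had all 10 twins of a medium outside the range of the controls on 1 side, beside 0.188% of all genes in GM501 and 0.166% in SAGE. The medians over members were 0.03 in GM501 and 0.08 in SAGE, beside 0.11 over all genes in each.

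**Figure D2:**
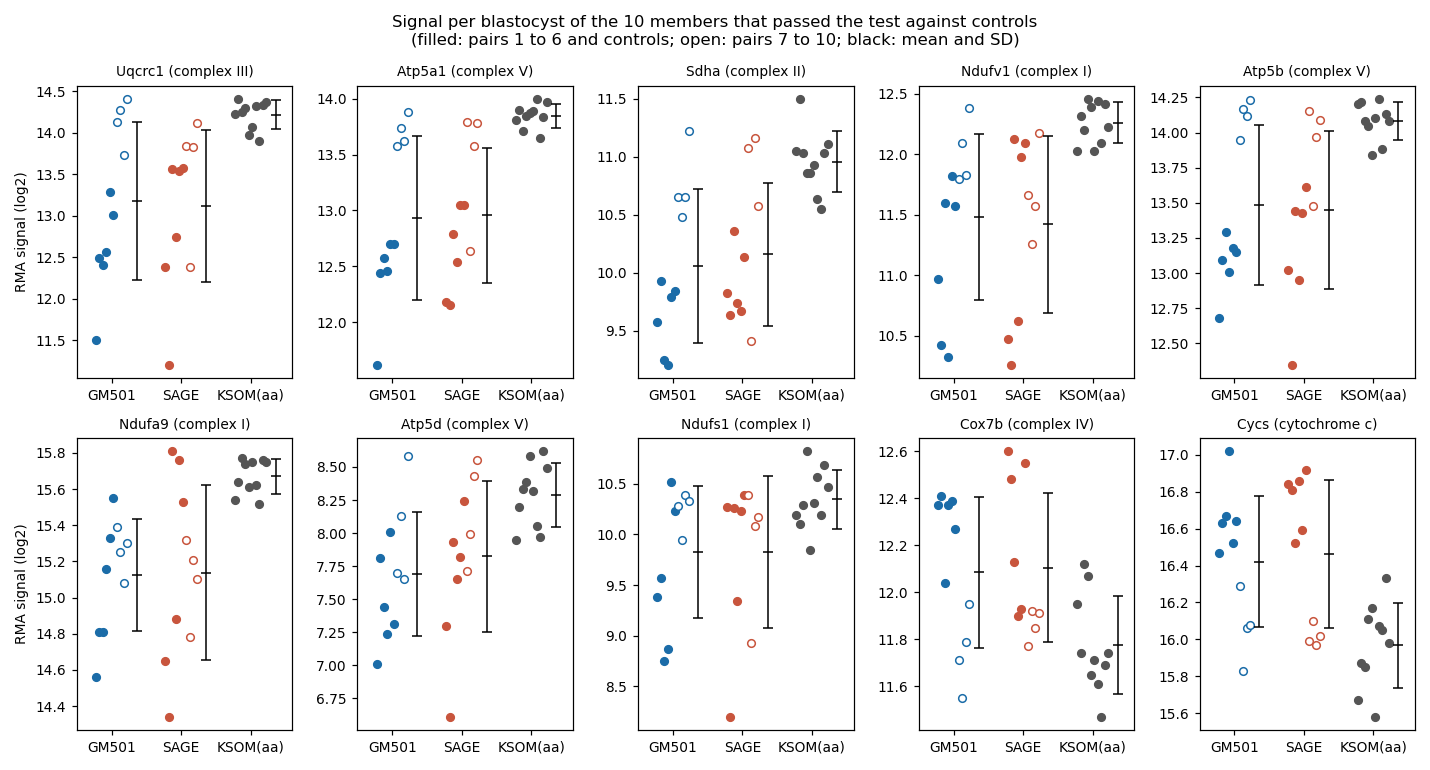
RMA signal (log2, vertical axis) in every blastocyst for the 10 members that passed the test on pair means, with GM501 twins in blue, SAGE twins in red and controls in grey. Filled symbols are pairs 1 to 6 and controls, open symbols are pairs 7 to 10, and black bars show the mean and SD of each group. In Uqcrc1, Atp5a1, Sdha and Atp5b all filled twin symbols lie below every control. Of the 4 open SAGE symbols, 3 lie below the lowest control in Uqcrc1, 2 in Atp5a1 and 1 each in Sdha and Atp5b.

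Complex II was led by Sdha, the flavoprotein that oxidises succinate, at chromosome 13, 74322255 to 74350240 (GRCm38). It ran from 10.55 to 11.50 in controls, with a median of 10.98. In GM501 twins it ran from 9.21 to 11.22 with a median of 9.88, and in SAGE twins from 9.41 to 11.16 with a median of 9.98. In each medium 7 of 10 twins lay below the lowest control, among them all 6 of pairs 1 to 6. The difference from controls was -0.90 ± 0.22 in GM501 (SE, n = 10 each, adjusted p = 0.0164) and -0.80 ± 0.20 in SAGE (adjusted p = 0.0189). The other members of the complex did not pass. Sdhb, the iron-sulfur subunit, differed by -0.24 in both media, and the membrane anchors Sdhc and Sdhd gave -0.09 and 0.09 in GM501 and -0.03 and -0.21 in SAGE. Sdhd had the widest spread of all members in SAGE twins, with an SD of 1.10 against 0.30 in controls.

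In complex III, Uqcrc1 had the largest difference of any member. It encodes a core protein that faces the matrix, and lies at chromosome 9, 108936648 to 108949641. Controls ran from 13.90 to 14.41 with a median of 14.28, GM501 twins from 11.50 to 14.41 with a median of 13.15 and SAGE twins from 11.21 to 14.12 with a median of 13.55. Below the lowest control were 7 GM501 twins and 9 SAGE twins. The difference was -1.04 ± 0.29 in GM501 (adjusted p = 0.028) and -1.09 ± 0.28 in SAGE (adjusted p = 0.018). Uqcrc2, the partner core protein, differed by -0.13 and -0.18 and did not pass. Cyc1, which carries the haem of cytochrome c1, was at -0.36 ± 0.16 in GM501 (adjusted p = 0.114) and -0.44 ± 0.15 in SAGE (adjusted p = 0.0531). The Rieske iron-sulfur protein Uqcrfs1 was at 0.18 and 0.24, the small subunit Uqcrb at 0.27 and 0.37 and Uqcrq at 0.00 and 0.13, and none passed.

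In complex V the calls lay among subunits of the F1 head. Atp5a1 and Atp5b encode the alpha and beta subunits that form the catalytic ring of the F1 head, and Atp5d its delta subunit. Atp5a1 ran from 13.65 to 14 in controls (median 13.86), from 11.62 to 13.88 in GM501 twins (median 12.70) and from 12.15 to 13.79 in SAGE twins (median 12.92), and 8 of 10 twins in each medium were below the lowest control. Its difference was -0.92 ± 0.22 in GM501 (adjusted p = 0.0175) and -0.89 ± 0.19 in SAGE (adjusted p = 0.0095). Atp5b, at chromosome 10, 128083307 to 128090388, ran from 13.84 to 14.24 in controls (median 14.09), from 12.68 to 14.23 in GM501 (median 13.23) and from 12.35 to 14.15 in SAGE (median 13.46). Atp5b differed by -0.59 ± 0.18 and -0.63 ± 0.18 (adjusted p = 0.0361 and 0.0271). Atp5d, at chromosome 10, 80138698 to 80145828, differed by -0.60 ± 0.16 in GM501 (adjusted p = 0.0256) and -0.47 ± 0.19 in SAGE, where it did not pass (adjusted p = 0.0829). A second cluster of Atp5d was dimmer and ran the other way, with means of 4.78 in GM501, 4.74 in SAGE and 4.51 in controls. With the mean of both clusters Atp5d was at -0.17 in GM501 and -0.14 in the pair means, and its call was lost in each. None of the 4 stalk subunits passed. They gave -0.03 and 0.04 for Atp5pb, 0.14 and 0.17 for Atp5h, 0.25 and 0.15 for Atp5j and -0.03 and -0.11 for Atp5o in GM501 and SAGE.

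Among the 18 genes of complex I, Ndufv1 and Ndufa9 passed in both media. Ndufv1, at chromosome 19, 4007499 to 4012755, encodes the subunit that binds NADH and FMN. It ran from 12.03 to 12.46 in controls (median 12.28), from 10.32 to 12.38 in GM501 twins (median 11.70) and from 10.26 to 12.18 in SAGE twins (median 11.62). The difference was -0.78 ± 0.22 in GM501 (adjusted p = 0.0264) and -0.84 ± 0.23 in SAGE (adjusted p = 0.0233), and 8 GM501 and 7 SAGE twins were below every control. Ndufa9, an accessory subunit at the junction of the 2 arms of the complex, at chromosome 6, 126821863 to 126849144, had the smallest adjusted p of any member in GM501, 0.00751, with a difference of -0.55 ± 0.11. Controls of Ndufa9 lay within 15.52 to 15.77, and 9 of 10 GM501 twins were below that range. In SAGE the difference of Ndufa9 was -0.53 ± 0.16 (adjusted p = 0.0303); 7 twins were below the controls and 1 was above. Ndufs1, the largest iron-sulfur subunit, was at -0.52 in each medium and passed only in the pair means (-0.52 ± 0.19, adjusted p = 0.0499).

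Beside Cycs, the largest positive differences were in accessory subunits listed under complex I, and none of these passed over all 10 pairs. Ndufa4, long counted with complex I and now known as a subunit of complex IV, differed by 0.68 ± 0.24 in GM501 (adjusted p = 0.0613) and 0.65 ± 0.27 in SAGE (adjusted p = 0.0933). Ndufa6 was at 0.43 and 0.51, Ndufa8 at 0.42 and 0.44 and Ndufa2 at 0.34 and 0.47. The other 11 genes of the complex, from Ndufa1 at -0.04 to Ndufb3 at 0.28 in GM501 and from Ndufa10 at -0.07 to Ndufb3 at 0.40 in SAGE, did not pass either. In the pair means, 14 of the 18 genes were above 0, with a median of 0.12 beside 0.11 over all genes.

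The 10 genes of complex IV are all accessory, since its catalytic subunits are encoded in mitochondria. None passed in either medium, and the differences ran from -0.06 to 0.31 in GM501 and from -0.04 to 0.33 in SAGE. Cox4i1 was at -0.04 and 0.01 and Cox5a at 0.02 and 0.10. Cox7b was at 0.31 and 0.33 and passed in the pair means (0.32 ± 0.12, adjusted p = 0.0474). Cox6a1, at 0.31 in both media, did not pass.

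Cycs, which encodes the soluble electron carrier between complexes III and IV, was the 1 member called higher in both media. Controls ran from 15.58 to 16.33 (median 16.02), GM501 twins from 15.83 to 17.02 (median 16.50) and SAGE twins from 15.97 to 16.92 (median 16.56). The difference was 0.45 ± 0.14 in GM501 (adjusted p = 0.0351) and 0.49 ± 0.15 in SAGE (adjusted p = 0.0322), and 6 twins in each medium, all from pairs 1 to 6, were above every control. The brightest cluster under this symbol lies on chromosome 19, while the gene lies on chromosome 6, 50562563 to 50566569. The cluster on chromosome 6 had means of 13.20 ± 0.43 in GM501, 13.25 ± 0.42 in SAGE and 13.02 ± 0.19 in controls (SD, n = 10 each) and did not pass in either medium, so the call belongs to the cluster on chromosome 19.

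Uqcrc1, Atp5a1, Sdha, Ndufv1, Atp5b, Ndufa9, Atp5d and Cycs kept their call in the pair means in each of 20 fits that left out 1 pair or 1 control; Ndufs1 and Cox7b each lost it in 14 of the 20. Without pair 7, 8 or 9 the count of called members was 17 each time, beside 35.8%, 28.8% and 39.1% of all genes called, and without pair 10 it was 14, beside 40.1%, with Ndufa4, Ndufa6, Uqcrb and Cyc1 gained each time. In GM501 alone Atp5b lost its call in 14 of 20 such fits, Cycs in 11 and Uqcrc1 in 3, and the count reached 14 without the twin of pair 8, beside 25% of all genes. In SAGE alone Cycs lost it in 9, Ndufa9 in 3 and Atp5b in 2, and the count reached 16 without the twin of pair 9, beside 34.9% of all genes. With centred arrays 14 members were lower and none higher in the pair means, beside 21% and 2.51% of all genes; Cycs fell short at 0.23 (adjusted p = 0.121), Cox7b at 0.08, and all 8 lower members kept their call. With centred arrays each medium alone had 10 members lower and none higher, beside 12.6% lower and 1.43% higher of all genes in GM501 and 17.3% and 1.44% in SAGE.

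**Figure D3:**
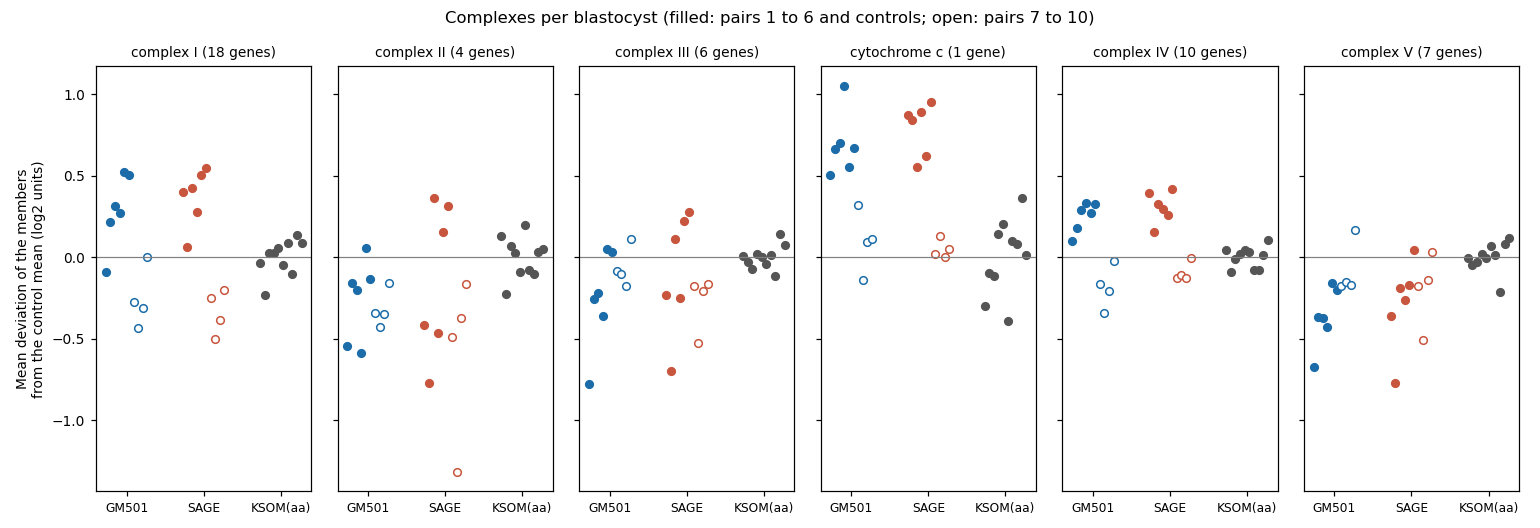
Mean deviation of the members of each complex from the control mean (log2 units, vertical axis) in each blastocyst, with GM501 twins in blue, SAGE twins in red and controls in grey; filled symbols are pairs 1 to 6 and controls, open symbols pairs 7 to 10. Signals are as deposited, without centring. On this scaling the filled twin symbols of complexes I and IV lie mostly above 0 and the open ones mostly below it, while in complex V the mean of each set lies below 0, from -0.37 to -0.08.

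How the 2 sets of pairs stood to the controls depended on the complex and on the scaling. In complex I, with signals as deposited, the mean deviation from the control mean was 0.29 ± 0.22 (SD) over the 6 GM501 twins of pairs 1 to 6 and 0.37 ± 0.18 over the 6 SAGE twins. In pairs 7 to 10 it was -0.25 ± 0.18 over the 4 GM501 twins and -0.33 ± 0.14 over the 4 SAGE twins, so that the sets lay on opposite sides of the controls. With centred arrays these 4 means of complex I were -0.11, 0.03, -0.25 and -0.43, and the sides were opposite in SAGE alone, where the first was smaller than its SD of 0.32. Complex IV, as deposited, had 0.25 ± 0.09 and 0.31 ± 0.09 in pairs 1 to 6, and -0.18 ± 0.13 and -0.09 ± 0.06 in pairs 7 to 10. With centred arrays all 4 means of complex IV were below 0, at -0.15, -0.04, -0.18 and -0.19. Complex V in GM501 was at -0.37 ± 0.18 in pairs 1 to 6 and -0.08 ± 0.17 in pairs 7 to 10; in SAGE the sets lay at -0.28 ± 0.27 and -0.20 ± 0.23, and all 4 means stayed below 0 with centred arrays. In complex II the means of both sets lay below the control mean, at -0.14 ± 0.47 and -0.59 ± 0.51 in SAGE twins. Single twins did not all follow. The SAGE twins of pairs 3, 5 and 6 were above the control mean, at 0.36, 0.15 and 0.31. In pairs 7 to 10 the SAGE twin of pair 8 was lowest, at -1.32. The difference between the sets was not tested, since the arrays themselves defined them.

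Against controls, pairs 1 to 6 alone had 22 members higher and 9 lower in the pair means, 67.4% of 46, beside 64.1% of all genes, 42.1% higher and 22% lower. GM501 twins of these pairs gave 22 higher and 9 lower beside 59.4% of all genes called (38.3% higher, 21.1% lower), and SAGE twins 23 higher and 8 lower beside 58.8% (38.9% higher, 19.9% lower). The higher ones were 11 genes of complex I, 6 of complex IV, Uqcrb and Uqcrfs1 of complex III, Atp5h and Atp5j of complex V, and Cycs. By role, assigned after the values had been seen, 17 of the 25 accessory subunits were higher and 1, Ndufa9, was lower. Of the 11 subunits grouped as the redox core of complexes I to III, not by their own redox centres, 2 were higher, Ndufs3 and Uqcrfs1, and 4 lower. The 3 F1 subunits measured among the members were lower. These counts by role are for signals as deposited. With centred arrays 7 stayed higher, namely the accessory subunits Ndufa2, Ndufa4, Ndufa6, Ndufa8, Ndufb3 and Uqcrb, and Cycs. On that scaling 17 were lower, beside 12.6% of all genes higher and 38.2% lower. The lower ones then included the accessory subunits Ndufa9, Ndufa10, Cox4i1, Cox6c and Cox8a. Of the other 15 called higher as deposited, 9 stayed above 0 without passing and 6 turned below 0, namely Ndufs3, Cox5a, Cox6b1, Cox7a2, Atp5h and Atp5j. All 9 lower members kept their call.

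Ndufa4 stood highest in these pairs. Its 12 twins ran from 15.15 to 15.97 while the controls ended at 14.94, and the difference was 1.24 (adjusted p = 3.64e-06), or 0.87 with centred arrays (adjusted p = 0.00022). Ndufb3 was at 0.92, Ndufa6 at 0.91, Ndufa8 at 0.88 and Ndufa2 at 0.84, and Cycs at 0.74. At the other end Uqcrc1 was at -1.52, Atp5a1 at -1.33, Sdha at -1.21, Ndufv1 at -1.07 and Atp5b at -0.98. With centred arrays these 5 stood at -1.90, -1.70, -1.58, -1.45 and -1.35.

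Pairs 7 to 10 gave few calls. In the pair means 3 members were lower and none higher, beside 0.73% of all genes called (0.381% higher, 0.348% lower): Ndufa9 at -0.49 (adjusted p = 0.0202), Ndufb9 at -0.47 (adjusted p = 0.0218) and Sdhb at -0.48 (adjusted p = 0.0494). GM501 twins gave Ndufa9, Ndufb9, Ndufb3 and Cox5a as lower, beside 1.32% of all genes (0.746% higher, 0.575% lower), and SAGE twins gave Ndufa9 and Ndufb9, beside 0.813% (0.282% higher, 0.531% lower). Ndufa9 was thus the 1 member called lower than controls in both sets, though others lay below 0 in both. The GM501 twins of pairs 7, 8, 9 and 10 had Ndufa9 signals of 15.39, 15.25, 15.08 and 15.30, and their SAGE twins 15.32, 14.78, 15.21 and 15.10, all below the lowest control at 15.52. Uqcrc1, at -0.38, Sdha, at -0.30, Atp5a1, at -0.27, and Atp5b, at -0.06, did not pass in these pairs. The SAGE twin of pair 8 was the lowest twin of this set in Uqcrc1 (12.38), Sdha (9.41) and Atp5a1 (12.64). Without pair 8, Uqcrc1 was at -0.21 and Sdha at -0.07 in the pair means. No member then passed in GM501 or in the pair means, and in SAGE Ndufa9 and Ndufb9 did.

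With signals as deposited, Cox5a and Ndufb9 stood on opposite sides of the controls in the 2 sets. Cox5a, an accessory subunit that binds near the top of complex IV, had controls from 16.50 to 16.70. All 12 twins of pairs 1 to 6 were above, from 16.75 to 17.10, and all 8 twins of pairs 7 to 10 below, from 16.13 to 16.46. Ndufb9, an accessory subunit of the membrane arm of complex I, had controls from 14.52 to 14.84, twins of pairs 1 to 6 from 14.87 to 15.31 and twins of pairs 7 to 10 from 14.02 to 14.33. Over all 10 pairs the differences of Cox5a and Ndufb9 were 0.06 and 0.09. In all, 7 members had the 12 twins of pairs 1 to 6 above every control (15.2%, beside 7.23% of all genes) and 4 had them below (8.7%, beside 5.55%); 3 had the 8 twins of pairs 7 to 10 below every control (6.52%, beside 0.188%). With centred arrays no member stayed above in pairs 1 to 6 (beside 0.763% of all genes), where Cox5a was at -0.08 and Ndufb9 at 0.09. Below every control in these pairs were then 6 members, Ndufv1, Sdha, Uqcrc1, Cox6c, Atp5a1 and Atp5b (13%, beside 10.3%), and in pairs 7 to 10 Ndufa9, Ndufb9 and Cox5a (6.52%, beside 0.138%).

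**Figure D4:**
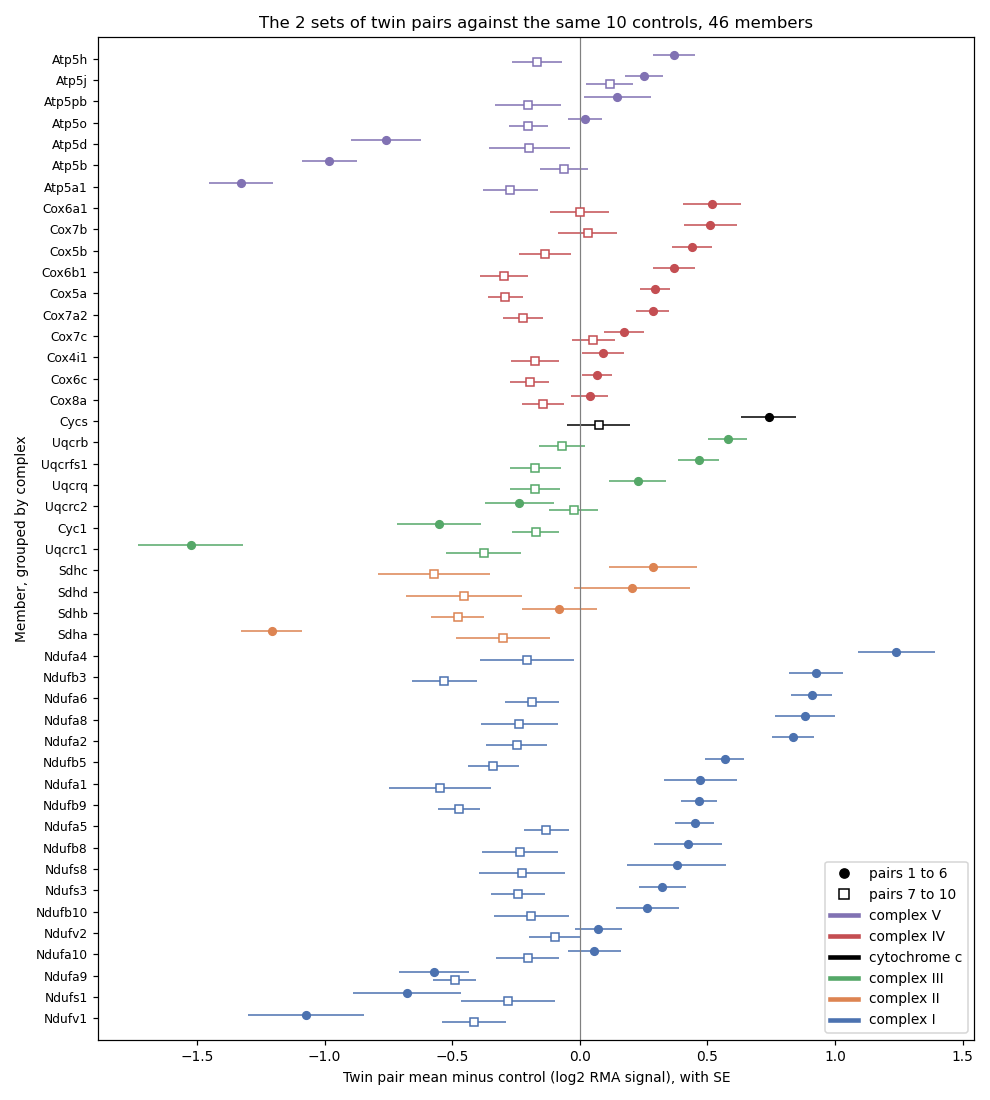
Twin pair means minus the same 10 controls (log2 units with SE, horizontal axis) for the 46 members, with pairs 1 to 6 as filled circles and pairs 7 to 10 as open squares, coloured by complex. Filled circles spread from -1.52 for Uqcrc1 to 1.24 for Ndufa4, while open squares lie between -0.57 and 0.12.

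The genomic span was 6.81 kb (median) for the 22 members called higher in pairs 1 to 6 and 9.10 kb for the 9 called lower, beside 13.71 and 28.93 kb for all protein-coding genes called in the same direction. The 15 members not called had a median of 6.41 kb, beside 24.02 kb for all protein-coding genes not called. Spans of higher members ran from 1.9 to 16.18 kb and those of lower members from 2.75 to 33.23 kb, so they overlapped. These medians are a description, and transcript lengths were not used here.

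Between the media, co-twins share a genome and an oocyte and differ in medium. No member passed, and no gene on the arrays did (0% of 18087 called by limma; 695 genes and 2 members had an unadjusted p under 0.05). Both counts were below a share of 0.05, the share that this threshold gives on average where nothing differs. Cox6b1, a subunit of complex IV that faces the space between the membranes, was lower in GM501 than in SAGE in 9 of 10 pairs, by 0.29 on average (-0.29 ± 0.10, SE; unadjusted p = 0.0156 by limma, adjusted p = 1). Pair 8 had the largest difference of Cox6b1, at -1. The twins ran from 14.45 to 15.82 in GM501 and from 15.14 to 16.06 in SAGE, so the groups overlapped. Ndufa1, a small membrane subunit of complex I, was lower in GM501 in 9 of 10 pairs (-0.21 ± 0.08; unadjusted p = 0.0312 by limma, adjusted p = 1). Ndufs8, at 0.24, Ndufb3, at -0.12, and Sdhd, at 0.30, came next by p.

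The 10 genes listed under complex IV all had differences below 0, from Cox6b1 to Cox6a1 at -0.005 and Cox6c at -0.003, but each interval other than that of Cox6b1 included 0. With centred arrays Cox6a1 was at 0.002, Cox6c at 0.004 and the other 8 below 0. Ndufa4, counted with complex I, was at 0.03 as deposited and 0.04 with centred arrays. Over the 46 members 14 differences were above 0, 31 below and 1, that of Ndufs1, at 0, with a median of -0.02 beside 0.01 for all genes. The 95% intervals, not adjusted over genes, reached from -0.53 for Ndufs1 to 0.86 for Sdhd, with a median half-width of 0.23. A call asked for more than an interval clear of 0. Cox6b1, whose interval lay below 0, did not pass, so differences larger than 0.23 could also have been missed. An adjusted p of 1 does not show that the media act alike.

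**Figure D5:**
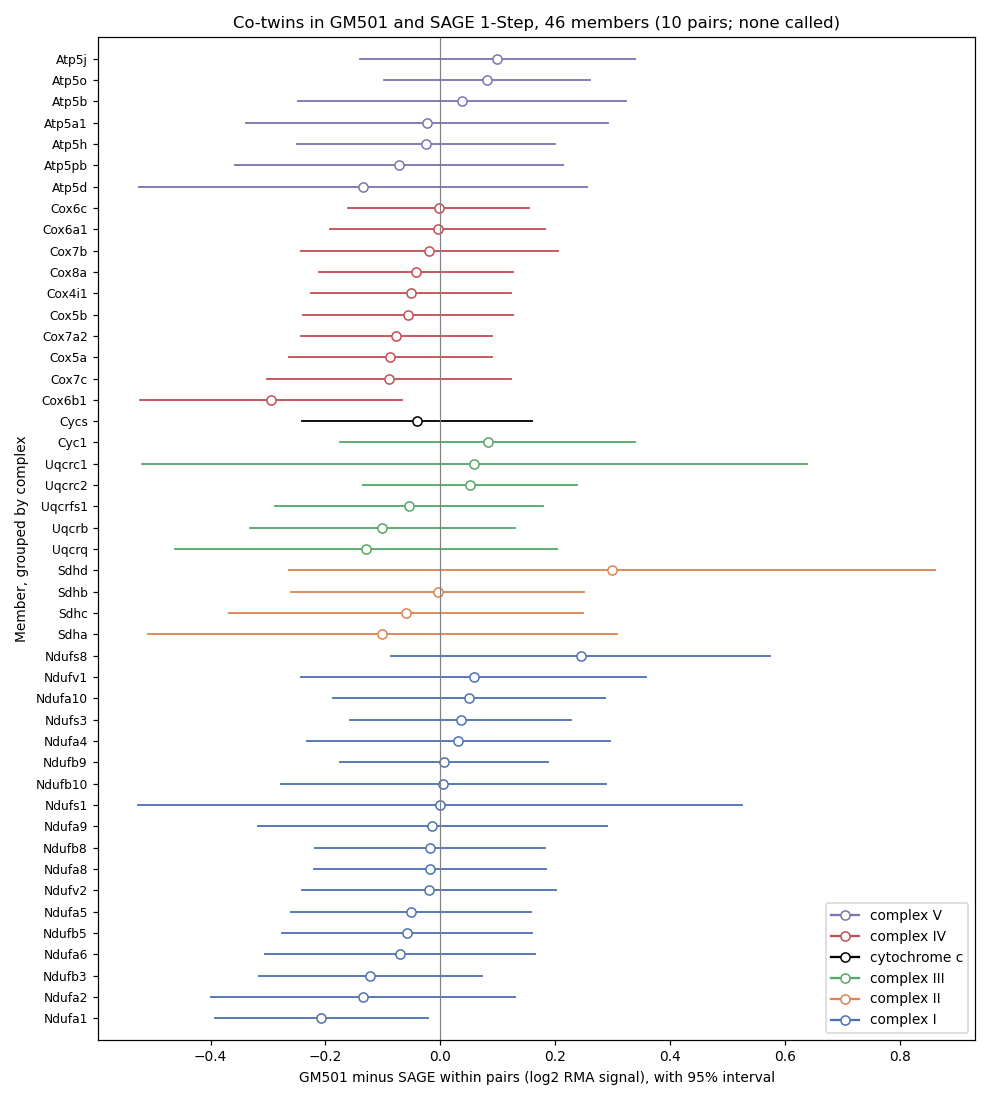
GM501 minus SAGE within pairs for each of the 46 members (log2 units, horizontal axis) with 95% intervals, grouped and coloured by complex; open points mark that none passed the test. The intervals of Cox6b1 and Ndufa1 lie below 0, and all others include it.

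The embryo of origin was tested among the 10 pairs in a model that also held the medium. Of the 46 members 26 differed between embryos (56.5%), beside 26.4% of all genes. Ndufb3 had the smallest p (adjusted p = 0.000241 by limma's F test), followed by Ndufa1 (0.000679), Ndufa8 (0.00101), Ndufa4 (0.00129) and Ndufb9 (0.00181), all listed under complex I. In Ndufb3 the twins of pair 7 both read 13 and those of pair 4 read 14.75 and 14.97. These pairs belong to different sets: Ndufb3 ran from 14.14 to 14.97 in pairs 1 to 6 and from 13 to 13.50 in pairs 7 to 10. The sets did not overlap in Ndufa1, Ndufa8, Ndufa4 and Ndufb9 either. The model did not separate embryos within a set from the gap between the sets. How far the calls follow that gap was not tested. With centred arrays 13 members passed (28.3%, beside 21.1%), so a part of the calls moved with the array median. After the mean of its medium had been taken from each member, Pearson's r across members was computed between co-twins. It ran from 0.25 in pair 8 to 0.89 in pair 7, with a median of 0.74. The median r with other embryos was -0.11, taken over embryos of both sets of pairs together. For 5 of the 10 GM501 twins the own co-twin had the highest r among the SAGE twins. These values are across genes, which are not independent.

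With all 10 pairs in the twin groups, controls were the most uniform group for these genes. The SD between blastocysts had a median over members of 0.15 in controls, 0.35 in GM501 twins and 0.46 in SAGE twins, beside 0.25, 0.46 and 0.48 for all genes. Cox5a had the smallest SD in controls, 0.06. The largest in GM501 was 0.96, for Uqcrc1. These twin SDs also hold the gap between pairs 1 to 6 and pairs 7 to 10. Within those sets the GM501 SD of Uqcrc1 was 0.61 and 0.29, above its 0.18 in controls. For Ndufa4 the GM501 SD was 0.72 over all pairs. Within the sets it was 0.28 and 0.24, below its 0.36 in controls. Whether members as a whole spread more within a set than in controls was not tested. Within pairs, the SD of the GM501 minus SAGE difference had a median of 0.29, beside 0.48 for all genes.

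The rest of the pathway was read from lists of genes chosen, like the members, with earlier results known. These lists, with the assembly factors and regulators below, were read over all 10 pairs and with signals as deposited alone. The median of all genes was 0.11, and 14.2% of all genes were higher and 11.4% lower in the pair means. With centred arrays 2.51% of all genes were higher and 21% lower, and no member was higher, so the higher calls in these lists may depend on the scaling. Of 16 further measured subunits of complex I, 3 were higher in the pair means and none lower: Ndufc1 by 0.60, Ndufa7 by 0.61 and Ndufa12 by 0.32, with a list median of 0.18. Of 4 further subunits of complexes III and IV above the filter, Uqcrh, the hinge protein of complex III, was higher by 0.65 (adjusted p = 0.0232), with a list median of 0.44. Of 10 further subunits of complex V, Atp5k, a small subunit of the membrane part, was higher by 0.92 (adjusted p = 0.0166), with a list median of 0.20. Among 7 tissue isoforms 3 were higher, with a list median of 0.31: Cyct, the testis form of cytochrome c, by 1.14, Cox7b2 by 0.87 and Cox8c by 0.31. Cox6b2, at 0.31, did not pass (adjusted p = 0.271). Cox7b2 had means of 4.79 in controls, 5.79 in GM501 and 5.53 in SAGE, and Cox8c 5.08, 5.51 and 5.28, near the lowest mean that passed the filter. The mitochondrially encoded subunits were represented by 5 genes, and ND6 was higher by 0.78 (adjusted p = 0.00998), with a list median of 0.19.

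Among 41 assembly factors 11 were higher and 2 lower in the pair means (all genes: 14.2% and 11.4%), with a median of 0.09. Sdhaf4, which helps to assemble complex II, was higher by 1.35 and Coa6, a copper-handling factor of complex IV, by 1.22. Ecsit, which acts in the assembly of complex I, was lower by 1.06 (-1.06, adjusted p = 0.00183) and Taco1, which activates the translation of mitochondrial COX1, was lower by 0.99 (-0.99, adjusted p = 0.00699). Of 10 regulators of mitochondrial biogenesis none was higher and 4 were lower, with a median of -0.25: Gabpa, a subunit of GABP, at -0.51, the coactivators Pprc1 at -0.63 and Ppargc1b at -0.50, and Polrmt, the mitochondrial RNA polymerase, at -0.28. Between GM501 and SAGE no gene of these lists passed; the smallest unadjusted p in limma belonged to Nubpl, an assembly factor of complex I, at 0.46 (p = 0.0172, adjusted p = 1), and to Tfb1m, a mitochondrial rRNA methyltransferase, at -0.80 (p = 0.0251, adjusted p = 1).

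Markers of the embryo, read with signals as deposited alone, also differed from controls. Of 7 trophectoderm markers, all above the filter, 6 were lower in the pair means, and their mean signal per array ran from 11.27 to 12.05 in GM501 twins, 10.65 to 12.32 in SAGE twins and 12.03 to 12.61 in controls. Of 5 epiblast markers 3 were lower, with array means of 7.27 to 9.17, 7.16 to 8.23 and 8.19 to 9.00. By medium, SAGE had Nanog (-1.54), Pou5f1 (-1.14) and Sox2 (-1.03) called lower. GM501 had none called lower and Klf2 higher by 0.45 (adjusted p = 0.0326 by limma). The median over these markers was below 0 in both media, at -0.56 in GM501 and -1.03 in SAGE, and none was called between the media. Of 4 primitive endoderm markers 3 were above the filter and 2 were lower, with array means of 6.40 to 7.36, 6.28 to 7.08 and 6.55 to 7.37. Cumulus and oviduct markers (4 of 6 above the filter), sperm markers (1 of 4) and markers of blood and immune cells (1 of 3) were low, with gene means from 3.28 to 6.00; 1 cumulus or oviduct marker and 1 blood or immune marker were higher, and no sperm marker was. Of 4 oocyte transcripts 1 was higher. The part of these markers in the differences was not tested.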

How the data were processed

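Single-blastocyst RNA was hybridised to Affymetrix arrays after amplification (GeneChip WT Pico). The deposited values were log2 signals that the authors made with RMA in Affymetrix Expression Console, with build mm10, per the submitters' processing notes; that the base is 2 follows from RMA and the range of the values. RMA brings the arrays' probe distributions together, which can move array-wide differences into single genes. Precision is limited by how many arrays there are.

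Of 65956 transcript clusters, 30604 carried 1 gene symbol and 2146 several; 827 were renamed through gene IDs. The brightest cluster over all arrays stood for each of 30142 genes, and the upper 60% by mean (18087 genes, from 4.80) went into 2-sided tests by limma's lmFit and eBayes (version 3.58.1, under R 4.3.3; Benjamini-Hochberg over all 18087), with an adjusted p under 0.05 as a call. The script was tested on simulated arrays drawn independently, without the pairs or the 2 sets. Changes of 0.5 were recovered in 23% to 37% of cases and changes of 1 in 66% to 88%. For embryo of origin these shares were 0% and 20%. Unchanged genes made up 16 of 141 calls in pair means, 11 of 100 in GM501, 5 of 111 in SAGE and 9 of 121 between media. GM501 and SAGE were compared with the pair as a block, because the labels name co-twins of 1 embryo; over all genes, co-twins' deviations correlated at 0.16 to 0.70. Controls were compared with each medium and with pair means. Arrays correlated at 0.929 to 0.985, and none were identical.

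The members and lists were chosen with earlier results of these data known. Named were up to 3 called members of each complex by p, the 5 largest differences in each direction, and Ndufs1, Ndufv1, Sdha, Uqcrfs1, Cyc1, Cycs, Cox4i1, Cox5a and Atp5b; for media and embryo of origin the 5 members with the smallest p; and of other lists called genes by p. Ndufb9, Sdhb and the remaining members were named after their values were seen. Roles were assigned likewise. Alternatives were other filters, centred arrays, trend and robust fitting, array weights, other clusters, other blocks, sets of pairs and each array left out. The settings with the cluster on the gene's own chromosome, with pairs 7, 9 and 10, and with centred arrays within a set were chosen after seeing the data.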

Additional observations from a re-analysis of the deposited data

Results flagged for a closer look

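Within groups of 10, 10 of 184 sets of values had 1 blastocyst or pair far from the nearest other; chance gives about 1 in 20. In 5 members the GM501 minus SAGE difference was lowest in pair 1 by such a gap, at -1.06 in Ndufa2, -0.82 in Ndufa4, -0.69 in Ndufb5, -0.44 in Ndufb9 and -0.77 in Uqcrfs1. Pair 8 was apart with the lowest difference in Cox6b1, at -1, and the highest in Atp5a1, at 1.1. Pair 2 was apart with the highest difference in Cox6a1, at 0.47, and in Atp5d, at 1.2. Among controls, control 5 was apart in Uqcrb, with a signal of 14.79.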

How the results depend on the processing

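The count of members called higher moved most with the processing. With arrays centred it was 0 in GM501, SAGE and the pair means; with array weights 14, 21 and 22, beside 28.1%, 31.8% and 39% of all genes higher; with the mean of all clusters, or the cluster on the gene's own chromosome, 0, 0 and 1. Without a filter it was 2 in SAGE and 7 in the pair means (19.8% and 33% of 30142 genes), and in the pair means 1 with the upper 40% of genes and 1 with trend and robust fitting. In pairs 1 to 6 it was 22, 23 and 22, and with centred arrays 4, 8 and 7; in pairs 7 to 10, centred or not, and in pairs 7, 9 and 10 it was 0 throughout. The count of lower members was 10 in SAGE and 14 in the pair means with centred arrays, and 17, 13 and 17 in centred pairs 1 to 6. It was 4, 2 and 3 in pairs 7 to 10, 4, 1 and 2 when these were centred, and 0, 2 and 0 in pairs 7, 9 and 10. The median over members was -0.21 in GM501 with centred arrays, -0.24 in SAGE and -0.20 in the pair means in pairs 7 to 10, and -0.34 and -0.25 when these were centred. Embryo of origin gave 13 members with centred arrays.

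Directions turned in pairs 7 to 10. Atp5b in GM501 was at 0.04 (0.0355), at 0.0375 with centred arrays and at 0.018 in pairs 7, 9 and 10, where its pair mean was at 0.003. Cox5a in GM501 was at -0.347 and centred at -0.345, and as deposited at -0.237 in SAGE and -0.292 in the pair means. In the pair means 24 members that were above 0 over all pairs were below 0 here, among them the uncalled Ndufa4, Ndufa6, Ndufa8 and Ndufa2 at -0.21, -0.19, -0.24 and -0.25. With centred arrays Cycs in SAGE was at -0.046 and Cox7b in the pair means at -0.017. For all of these the cause was not tested, and a set also held fewer arrays than all pairs together.

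Leaving out 1 array or pair gave 0 to 7 higher and 5 to 8 lower members in GM501 (median -0.004 to 0.08), 0 to 8 and 4 to 8 in SAGE (0.04 to 0.14) and 1 to 9 and 7 to 9 in the pair means (0.03 to 0.12); between media it gave 0 called and a median of -0.05 to 0.01. Without the replicate block, 0 members were called between the media, as with it. With the pair as a random block in 1 fit of all 30 arrays GM501 lost Atp5d (7 called) and SAGE kept its 7.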
